A study of Mus musculus with 9 samples.

Results

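The pentose phosphate pathway was examined through 10 enzyme genes, chosen by name: G6pdx, H6pd, Pgls and Pgd of the oxidative branch, Rpia, Rpe, Tkt and Taldo1 of the non-oxidative branch, and the linked kinases Shpk and Prps1. All 10 were found by their Ensembl identifier among the 34866 genes measured. Expression was measured by mRNA sequencing in cultured mouse primary macrophages, phagocytes grown with medium conditioned by L929 cells, a mouse fibroblast line. There were 3 groups of 3 libraries, described as biological replicates. Cells of the standard oxygen group spent their 7 days of culture without hypoxia, those of the acute hypoxia group were put at 1% oxygen for 3 hours after culture without hypoxia, and those of the chronic hypoxia group were held at 1% oxygen throughout the 7 days. No strain, sex, age or genotype of the animals was given in the sources used here, and the oxygen content called standard was not given as a number.

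The pathway branches off glycolysis at glucose 6-phosphate. Its oxidative branch burns that sugar phosphate to ribulose 5-phosphate and makes NADPH, which macrophages use to regenerate glutathione and thioredoxin, to build lipids and to fuel the oxidative burst of the phagocyte NADPH oxidase. The non-oxidative branch interconverts sugar phosphates reversibly, supplies ribose 5-phosphate for nucleotides and returns carbon to glycolysis. The transcripts below report the amounts of enzyme messages and not the flow of carbon.

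Values are TPM as deposited by the authors, a measure of each gene's share of its library after division by gene length. All libraries have the same sum and the sequencing depth is unknown, so the spread over 3 libraries was the measure of error. Differences are log2 fold changes on the log2(TPM + 1) scale, tested with limma across all genes with a mean of at least 1 TPM. A gene was called when its Benjamini-Hochberg adjusted p over all those genes was below 0.05. The descriptions of the samples hold digits shared by 1 library of each group, here named codes X, Y and Z. Replicate 1 carried code X in every group. Code Y was on standard replicate 3, acute replicate 2 and chronic replicate 2, and code Z on standard replicate 2, acute replicate 3 and chronic replicate 3. What the code stands for was not stated. The 3 code Z libraries stood apart from the other 6 on the first principal component, which held 36.9% of the variance over 11065 genes. Libraries of the same code deviated together from their group means (r from 0.378 to 0.633 across genes, which are not independent replicates). No library of code X was compared with one of code Y, so the pairing within these codes was not tested. Tests are therefore given both unblocked and blocked by code, and for the members without the code Z libraries where that changes a call. Those last fits rest on codes X and Y alone. Unblocked limma gave an unadjusted p below 0.05 for 785 of 10987 genes in acute hypoxia against standard oxygen. In chronic hypoxia it was 2533 of 11067 against standard oxygen and 2305 of 11087 against acute hypoxia. With the code block these counts were 1555, 4253 and 3953. They are the background of the unadjusted counts below. The median gene was 0.16 higher (log2) in chronic hypoxia than in standard oxygen and 0.14 higher than in acute hypoxia. After median-of-ratios rescaling these medians were -0.002 and -2.08e-05, and the calls against standard oxygen went from 232 higher and 66 lower to 115 higher and 119 lower unblocked, and from 1674 higher and 365 lower to 613 higher and 657 lower with the code block. Chronic against acute hypoxia went from 61 higher and 16 lower to 33 higher and 48 lower unblocked, and from 1345 higher and 379 lower to 524 higher and 560 lower with it.

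The libraries carried the markers of macrophages. All 8 markers listed (Adgre1, Csf1r, Cd68, Itgam, Lyz2, Cd14, Fcgr1 and Mrc1) had a mean of at least 1 TPM in every group, with a summed level of 56605 to 74770 TPM per library. Lyz2 alone, at 52793 to 70403 TPM, made up most of that sum, and Mrc1 was as low as 0.247 TPM in 1 library. The 22 markers of T cells, B cells, neutrophils, dendritic cells, fibroblasts, erythroid cells and mast cells summed to 1.77 to 3.99 TPM in standard oxygen, 2.14 to 2.98 in acute hypoxia and 2.41 to 3.61 in chronic hypoxia. Their highest single value was 2.03 TPM, for Camp in a chronic hypoxia library. In bulk RNA of this kind, fewer cells of a type and less RNA per cell cannot be told apart.

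The pathway was expressed very unevenly. Over the 9 libraries Pgd, which encodes the second NADPH-forming dehydrogenase of the oxidative branch, had the highest mean at 501 TPM (383 to 650), above 97.6% of the 11065 genes with a mean of at least 1 TPM. Taldo1 (transaldolase) followed at 430 TPM (289 to 551) and Tkt (transketolase) at 279 TPM (242 to 343). G6pdx, the glucose 6-phosphate dehydrogenase that commits carbon to the branch, was at 169 TPM (121 to 209), and Pgls, the lactonase between the dehydrogenases, at 145 TPM (118 to 183). The isomerases and the epimerase were lower: Rpe (ribulose phosphate epimerase) was at 36.1 TPM (30.2 to 41.6) and Rpia (ribose 5-phosphate isomerase) at 11.1 TPM (9.01 to 14.5). H6pd, which encodes a glucose 6-phosphate dehydrogenase and lactonase of the endoplasmic reticulum, was at 49.6 TPM (36.5 to 75.6). Prps1, whose enzyme turns ribose 5-phosphate into the nucleotide precursor PRPP, was at 8.22 TPM (5.37 to 14.8), and Shpk, the sedoheptulose kinase, was lowest at 2.64 TPM (1.82 to 3.66). The ranges of Pgd and Taldo1 overlapped, as did those of Taldo1 and Tkt, G6pdx and Pgls, H6pd and Rpe, and Rpia and Prps1. Tkt lay above G6pdx, Pgls above H6pd, Rpe above Rpia and Prps1 above Shpk in every library.

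The genes lie on 8 chromosomes of the mouse genome (GRCm38, GENCODE M21 gene models): G6pdx and Prps1 on chromosome X, H6pd and Pgd on 4, Pgls on 8, Rpia on 6, Rpe on 1, Tkt on 14, Taldo1 on 7 and Shpk on 11. Some of these values can include reads of other genes. For Rpe, 18.3% of the 75-base windows along its longest transcript also occur in Kansl1l, a neighbour on the opposite strand, at a mean of 3.58 TPM. For G6pdx the share was 4.19%, and 13.6% of its exon bases overlap Ikbkg on the other strand, which had a mean of 58.7 TPM. Of the exon bases of Pgls, 20.6% overlap Fam129c on the same strand, at a mean of 1.26 TPM. Prps1 shared 5.13% with Prps1l3, Rpia 3.00% with 9 genes and Taldo1 1.24% with Gm17823. H6pd, Pgls, Pgd, Tkt and Shpk shared none. How reads were assigned by strand was not given in the sources used here, so reads of overlapping genes cannot be told apart.

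The 250 bases before the annotated start are printed for 4 members, G6pdx as the entry enzyme and Pgd, Pgls and Taldo1 as those called with the code block below in both chronic hypoxia comparisons in different directions. The sequences are from RefSeq (GRCm38.p6), 5′ to 3′ on the strand of the gene. Capitals mark matches, on either strand, to TGACNNNGC, the core of the antioxidant response element bound by NRF2, and to ACGTG or GCGTG, the core bound by hypoxia-inducible factors.
G6pdx, chrX:74428881-74429130, minus strand: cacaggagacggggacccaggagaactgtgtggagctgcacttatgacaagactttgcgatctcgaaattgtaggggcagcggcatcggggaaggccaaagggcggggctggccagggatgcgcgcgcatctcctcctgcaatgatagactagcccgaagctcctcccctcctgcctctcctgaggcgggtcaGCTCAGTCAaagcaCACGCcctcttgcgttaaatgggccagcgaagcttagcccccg
Pgd, chr4:149166706-149166955, minus strand: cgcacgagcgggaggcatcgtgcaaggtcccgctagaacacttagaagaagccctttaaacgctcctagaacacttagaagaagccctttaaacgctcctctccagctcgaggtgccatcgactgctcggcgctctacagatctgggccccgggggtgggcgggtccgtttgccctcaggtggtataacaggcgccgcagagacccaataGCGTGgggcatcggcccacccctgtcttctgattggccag
Pgls, chr8:71591934-71592183, plus strand: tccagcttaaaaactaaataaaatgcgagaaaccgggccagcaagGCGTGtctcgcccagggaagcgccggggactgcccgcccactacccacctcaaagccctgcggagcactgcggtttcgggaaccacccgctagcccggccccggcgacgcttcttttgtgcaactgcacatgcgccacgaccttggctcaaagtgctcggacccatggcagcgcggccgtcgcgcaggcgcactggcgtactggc
Taldo1, chr7:141391910-141392159, plus strand: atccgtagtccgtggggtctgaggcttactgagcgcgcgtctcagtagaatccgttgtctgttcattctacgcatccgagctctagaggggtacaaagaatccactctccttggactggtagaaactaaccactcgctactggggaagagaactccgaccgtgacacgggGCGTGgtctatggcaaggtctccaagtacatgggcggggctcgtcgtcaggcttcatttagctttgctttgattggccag
Of the 11 windows of the 10 members (Pgd has 2), 8 held GCGTG, 0 held ACGTG and 1, that of G6pdx, held TGACNNNGC. Among all 32851 windows of this length in the table, GCGTG was in 28.2%, ACGTG in 16.6% and TGACNNNGC in 10.2%. The windows of H6pd and Rpe and the other window of Pgd held none of the 3 motifs. Those of G6pdx, H6pd and Tkt and the other window of Pgd lie wholly inside the GENCODE gene models, past their starts. A match of such short letters is a description and not a binding site. The genes with GCGTG include Taldo1, which was lower in chronic hypoxia, Pgls, which was higher, and Tkt, which passed no test.

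**Figure D1:**
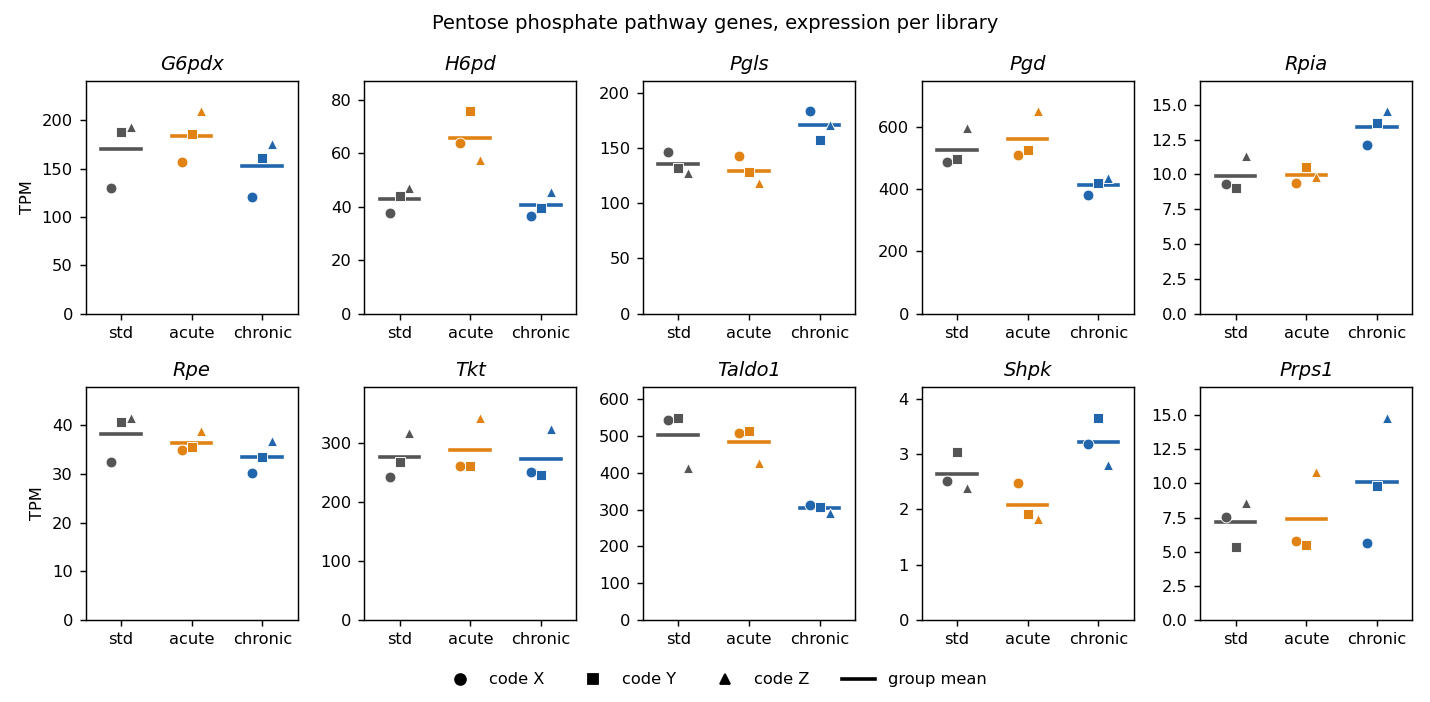
Expression of the 10 pathway genes in TPM (vertical axis, from 0) in standard oxygen (std), acute hypoxia and chronic hypoxia, 1 point per library, with its shape giving the sample code and the bar giving the mean of 3. Taldo1 in chronic hypoxia, at 289 to 312 TPM, sits below every other library, and H6pd in acute hypoxia, at 57.5 to 75.6 TPM, sits above them.

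Acute hypoxia was set against standard oxygen to see whether 3 hours at 1% oxygen alter the pathway's transcripts. H6pd stood out, with a level 53.3% higher in acute hypoxia, but it was not called. No member was called by limma, either unblocked (0 of 10, background 0.0273% of 10987 genes) or with the code block (0 of 10, background 0.71%, of which 0.655% were higher and 0.0546% lower). At an unadjusted p below 0.05 the count was 1 of 10 in either fit, H6pd. Among all 10987 genes it was 785 unblocked and 1555 with the code block. The median log2 fold change of the 10 was 0.01, as was that of all genes tested.

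H6pd was at 37.5, 47.0 and 43.9 TPM in standard replicates 1, 2 and 3 and at 63.6, 75.6 and 57.5 TPM in acute replicates 1, 2 and 3. The groups did not overlap, as was the case for 7.63% of all genes in the higher direction. The code Z acute library was the lowest of its group, and the code Z standard library the highest. The log2 fold change was 0.60 ± 0.138 (SE), with a 95% interval of 0.27 to 0.93, and 0.75, 0.77 and 0.29 within codes X, Y and Z. In limma it had an adjusted p of 0.274 unblocked and 0.145 with the code block. Without the code Z libraries the change was 0.76, with a limma adjusted p of 0.0533 unblocked and 0.0229 with the code block, so that the blocked call turned on those libraries. The background without them was 2.95% unblocked and 3.02% with the code block.

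In the cytosolic oxidative branch G6pdx was at 130, 193 and 187 TPM in standard oxygen against 157, 186 and 209 TPM in acute hypoxia, a log2 fold change of 0.12 (95% interval -0.32 to 0.57). The interval narrowed to -0.07 to 0.32 with the code block. Pgd was at 487, 596 and 497 TPM against 510, 527 and 650 TPM, a change of 0.09 (-0.04 to 0.22 with the code block). Its acute library exceeded the standard library of the same code in 3 of 3 pairs, by 0.07 to 0.13, as did 20.9% of all genes. Pgls was at 146, 127 and 132 against 142, 128 and 118 TPM, a change of -0.06 (-0.21 to 0.08). For each of these genes the acute and standard libraries overlapped, and changes above 0.32 in either direction lie outside the code-block intervals.

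In the non-oxidative branch the differences were small in the same libraries. Taldo1 was at 545, 413 and 551 TPM in standard oxygen against 508, 514 and 427 TPM in acute hypoxia, a change of -0.05 with an interval of -0.20 to 0.10 in the code block. Tkt was at 242, 317 and 267 against 261, 261 and 343 TPM, a change of 0.06 (-0.09 to 0.22). For both genes the code Z library lay apart in either group, low for Taldo1 and high for Tkt, by more than the groups differed. Rpia and Rpe had changes of 0.01 and -0.06, and their code-block intervals ran from -0.28 to 0.30 and from -0.28 to 0.16. Among the linked kinases Shpk had a change of -0.25 (-0.67 to 0.17) and Prps1 of 0.00 (-0.39 to 0.39).

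Chronic hypoxia against standard oxygen asked what 7 days at 1% oxygen do to the same genes. Members differed in both directions as deposited, but only lower calls remained after rescaling. Taldo1 was 39.7% lower and Pgd 21.7% lower, while Pgls was 26% higher and Rpia 35.7% higher as shares of the library. In limma, unblocked, 0 of 10 members were called (background 2.69% of 11067 genes). At an unadjusted p below 0.05 were 4 members and 2533 of the 11067 genes. With the code block 4 of 10 were called, 2 higher (Pgls and Rpia) and 2 lower (Pgd and Taldo1), against a background of 18.4%, of which 15.1% were higher and 3.3% lower. After rescaling with the code block the 4 called were all lower (G6pdx, Pgd, Rpe and Taldo1; background 5.94% lower and 5.54% higher), and Pgls and Rpia were no longer called. The median of the 10 was -0.04 as deposited against 0.16 for all genes, and -0.22 after rescaling against -0.002.

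Taldo1 was at 545, 413 and 551 TPM in standard replicates 1, 2 and 3 and at 312, 307.99 and 289 TPM in the chronic replicates. Every chronic library lay below every standard library, and the chronic values were closely grouped, at 303 ± 11.9 TPM against 503 ± 77.9 TPM (SD, n = 3). The log2 fold change was -0.72 ± 0.137 (SE). It missed the threshold without a block, with a limma adjusted p of 0.0512, and passed with the code block at 0.0149. Without the code Z standard library (replicate 2, the lowest of its group) it passed without a block, at -0.85 and an adjusted p of 0.0167 (background 4.74%). With any other library left out it did not pass without a block, at limma adjusted p-values of 0.0739 to 0.211. The change was -0.82 without all code Z libraries (unblocked adjusted p 0.0026, background 21.1%). With rescaling it was -0.90, called with the code block (limma adjusted p 0.0137) but not unblocked (0.0701).

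Pgd was at 487, 596 and 497 TPM in standard oxygen and 383, 419 and 435 TPM in chronic hypoxia. The groups did not overlap, as held for 5.39% of all genes in the lower direction. The log2 fold change of Pgd, -0.35 ± 0.118 (SE), had a limma adjusted p of 0.153 unblocked and 0.0363 with the code block. Without the code Z libraries it was -0.30, called unblocked (adjusted p 0.0483), where 21.1% of all genes were called. With rescaling it was -0.53, called both unblocked (adjusted p 0.0457, background 2.12%) and with the code block (0.02).

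Pgls, which acts between G6pdx and Pgd in the same chain, moved the other way. It was at 146, 127 and 132 TPM in standard oxygen and 183, 157 and 171 TPM in chronic hypoxia, so that all chronic libraries were higher. The difference was 0.33 ± 0.105 (log2, SE), and the limma test gave an adjusted p of 0.133 unblocked and 0.0356 with the code block. Relative to the median gene the difference was smaller: after rescaling it was 0.15, with an adjusted p of 0.215 in the code block. Groups without overlap in the higher direction were common in this comparison, at 24.2% of all genes.

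G6pdx was at 130, 193 and 187 TPM in standard oxygen and 121, 161 and 175 TPM in chronic hypoxia, with overlapping groups. It was lower in 3 of 3 code pairs, by -0.10 to -0.22, as were 12.6% of all genes. The log2 fold change of -0.15 (95% interval -0.32 to 0.01 with the code block) had a limma adjusted p of 0.147 in that fit. After rescaling it was -0.33 and was called with the code block (adjusted p 0.0405). H6pd was at 36.5, 39.7 and 45.5 TPM in chronic hypoxia, against 37.5, 47.0 and 43.9 TPM in standard oxygen, a change of -0.08 (-0.25 to 0.10).

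In the non-oxidative branch Rpia, which makes ribose 5-phosphate, was at 9.31, 11.3 and 9.01 TPM in standard oxygen and 12.1, 13.7 and 14.5 TPM in chronic hypoxia, without overlap. The difference of 0.41 ± 0.136 (log2, SE) had a limma adjusted p of 0.149 unblocked and 0.0471 with the code block. Without the code Z libraries it was 0.45, with 0.0494 unblocked (background 21.1%). The code-block call was lost with rescaling, where the change was 0.24 and the adjusted p 0.159. Rpe was at 32.4, 41.6 and 40.7 against 30.2, 33.5 and 36.7 TPM, a change of -0.18 that was called after rescaling with the code block (-0.36, adjusted p 0.0478). Tkt was at 242, 317 and 267 against 251, 246 and 323 TPM. Its change of -0.01 had a code-block interval of -0.19 to 0.16, which leaves out a fall of the size seen for Taldo1. Shpk (0.21) and Prps1 (0.38) were not called in any fit run, and Shpk was higher in 3 of 3 code pairs, as were 46.9% of all genes. The chronic values of Prps1 ran from 5.65 to 14.8 TPM, the widest spread relative to the mean among the members.

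**Figure D2:**
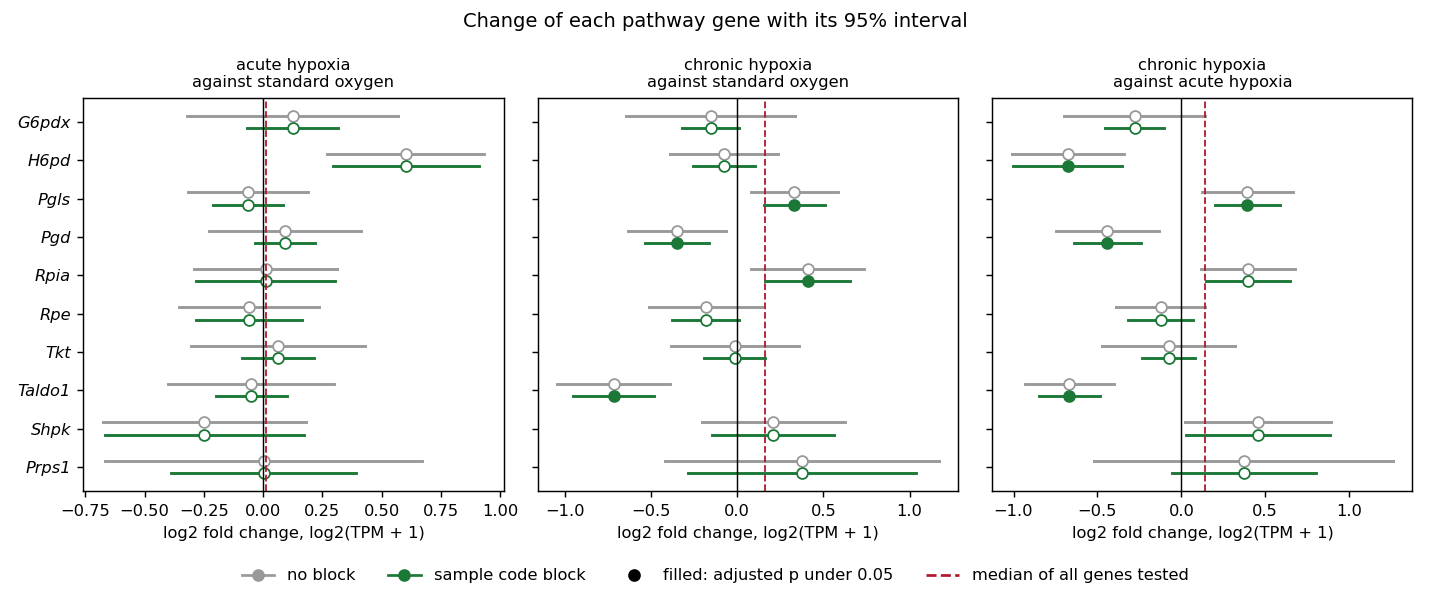
Log2 fold change of each member (horizontal axis, log2(TPM + 1) scale) in the 3 comparisons, with 95% intervals from limma without a block (grey) and with the sample code block (green), filled where the adjusted p was below 0.05. The dashed line is the median of all genes tested. Taldo1 lies at -0.72 and -0.67 in the chronic hypoxia panels, and H6pd is at 0.60 in acute hypoxia and -0.68 between chronic and acute.

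Chronic was set against acute hypoxia to compare 7 days with 3 hours of exposure, and here the replicate numbers and the codes give the same pairs. In limma, unblocked, 0 of 10 members were called (background 0.695% of 11087 genes). At an unadjusted p below 0.05 were 6 members and 2305 of the 11087 genes. The code block called 4 of 10: H6pd, Pgd and Taldo1 were lower and Pgls was higher, against a background of 15.5%, with 3.42% lower and 12.1% higher. With rescaling added, 4 were called, all lower (G6pdx, H6pd, Pgd and Taldo1), where 5.06% of all genes were lower and 4.73% higher. The median of the members was -0.10 against 0.14 for all genes.

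H6pd was at 63.6, 75.6 and 57.5 TPM in the acute libraries and at 36.5, 39.7 and 45.5 TPM in the chronic ones, which are separate cultures, 38.2% lower and without overlap. The difference of -0.68 ± 0.14 (log2, SE) had a limma adjusted p of 0.0794 unblocked and 0.0298 with the code block. It was -0.85 without the code Z libraries (adjusted p 0.0126 unblocked), where 1788 of 10952 genes were called. Within codes X, Y and Z the differences were -0.79, -0.91 and -0.33, so that the code Z pair differed least. The same was seen between acute hypoxia and standard oxygen, but both comparisons share the acute library of code Z, at 57.5 TPM.

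Taldo1 was 37.3% lower in chronic than in acute hypoxia (289 to 312 TPM against 427 to 514 TPM), with no overlap and a log2 fold change of -0.67 ± 0.111 (SE). The limma adjusted p was 0.0599 unblocked and 0.0122 with the code block. Leaving out acute replicate 3, of code Z, brought the unblocked value to 0.0473 (background 90 of 11038 genes). Leaving out all code Z libraries brought it to 0.00557 (-0.72, background 1788 of 10952 genes). Pgd was 26.7% lower (-0.44 ± 0.128 SE), with adjusted p-values of 0.138 and 0.0262, and without the code Z libraries it was -0.37 and called unblocked (0.0359, same background). Pgls was 31.5% higher (0.39 ± 0.112 SE), with 0.132 and 0.0313, but 0.24 and 0.121 after rescaling with the code block.

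G6pdx was lower by -0.28 with an adjusted p of 0.0541 in the code block, and -0.43 with 0.0257 after rescaling. Rpia was higher by 0.40, with an adjusted p of 0.0533 in the code block. On the deposited scale G6pdx was called with the code block when the code Z libraries were left out (-0.29, adjusted p 0.0322), where Rpia was not (0.34, 0.0821). That fit called 2751 of 10952 genes. With all 9 samples in 1 blocked fit G6pdx and Rpia were both called (0.0282 and 0.0306), where 2464 of 11087 genes were. Tkt differed by -0.08 (-0.23 to 0.08 with the code block) and Rpe by -0.12 (-0.32 to 0.07). Shpk was at 2.48, 1.92 and 1.82 TPM in acute and 3.18, 3.66 and 2.80 TPM in chronic hypoxia, without overlap, with a change of 0.46 and an adjusted p of 0.122 in the code block. Without overlap 3 members were higher (Pgls, Rpia and Shpk; background 22.3%) and 3 lower (H6pd, Pgd and Taldo1; background 5.5%).

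Ratios between members within a library do not depend on scaling between libraries. The summed TPM of the 4 oxidative genes divided by that of the 4 non-oxidative genes was 0.966, 1.23 and 0.993 in standard replicates 1, 2 and 3. The acute libraries gave 1.07, 1.12 and 1.26 and the chronic ones 1.20, 1.29 and 1.24. The log2 ratio differed by 0.12 between acute hypoxia and standard oxygen, by 0.24 between chronic hypoxia and standard oxygen and by 0.12 between chronic and acute hypoxia, where the SD in standard oxygen alone was 0.191. In codes X and Y the acute library was above the standard one and the chronic above the acute, whereas code Z was at 1.23, 1.26 and 1.24. The sums are led by Pgd and Taldo1. When each gene counted equally on the log2 scale the difference was 0.07 in chronic hypoxia against standard oxygen and -0.13 against acute hypoxia. The direction was thus the same in both measures against standard oxygen and turned against acute hypoxia. With equal weights the measure was highest in acute hypoxia, where H6pd had the highest change of the oxidative genes (0.60). Being a score over chosen members, the branch balance was given no test.

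Ratios of members within a branch were also compared. They use the same values as the changes above, so a separation here is no further evidence. Tkt over Taldo1, the pair that shuffles carbon in the non-oxidative branch, was 0.445, 0.768 and 0.485 in standard oxygen. In the acute libraries it was 0.514, 0.507 and 0.803, and in the chronic ones 0.805, 0.797 and 1.12. The chronic library was highest within each code. Pgd over Pgls was 3.33, 4.68 and 3.76 in standard oxygen, against 3.58, 4.11 and 5.50 in acute hypoxia. It was 2.09, 2.67 and 2.54 in chronic hypoxia, below all other libraries. G6pdx over H6pd, the cytosolic enzyme over that of the endoplasmic reticulum, was 2.86 ± 0.679 under acute hypoxia, below 3.95 ± 0.427 for standard oxygen and 3.74 ± 0.386 for chronic hypoxia (SD, n = 3). The ranges of acute hypoxia (2.46 to 3.64) and the others (from 3.31) overlapped. G6pdx over Pgls was 0.891, 1.52 and 1.42 in standard oxygen, with 1.10, 1.45 and 1.77 for acute hypoxia and 0.66, 1.03 and 1.02 for chronic hypoxia, and these groups overlapped too. The summed level of all 10 members was 1412 ± 87.2 TPM under chronic hypoxia, with 1711 ± 62.6 TPM for standard oxygen and 1769 ± 88.1 TPM for acute hypoxia (SD, n = 3), and all 3 chronic libraries were below the other 6.

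**Figure D3:**
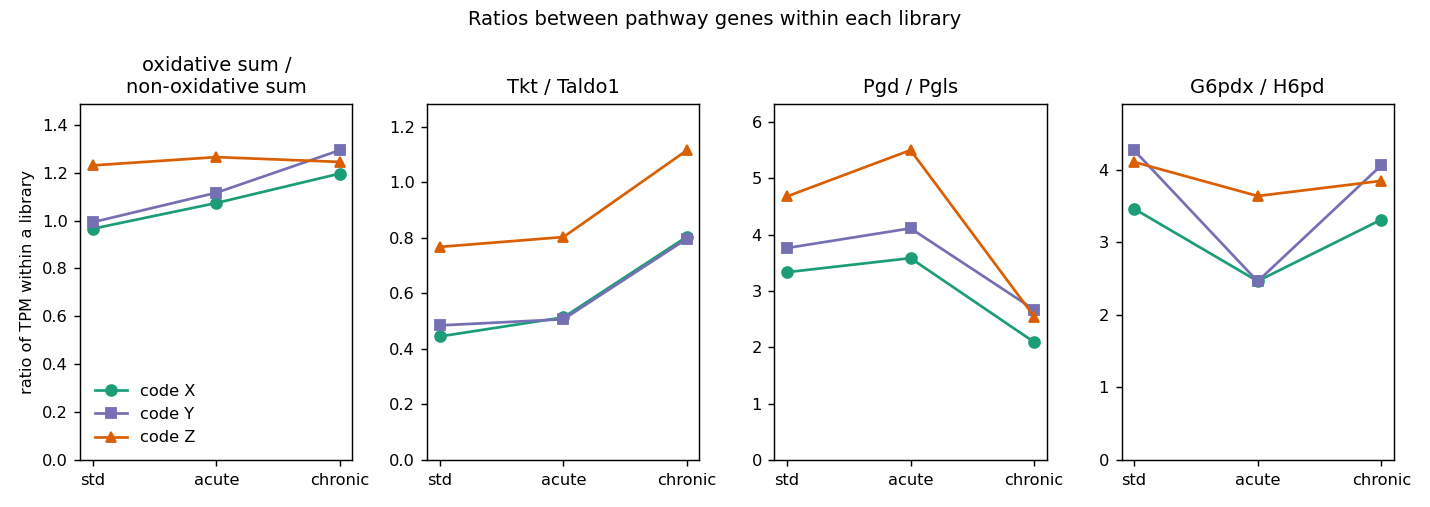
Ratios of TPM within each library (vertical axes, from 0), joined by sample code across standard oxygen (std), acute and chronic hypoxia. The ratio of Tkt to Taldo1 is highest in chronic hypoxia within each code (0.797 to 1.12), that of Pgd to Pgls lowest (2.09 to 2.67), and that of G6pdx to H6pd lowest in acute hypoxia (2.46 to 3.64).

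The code Z libraries shared a pattern across oxygen conditions. In all 3 groups the code Z library had the highest value of G6pdx, Pgd, Rpe, Tkt and Prps1 and the lowest of Taldo1 and Shpk. What differed between these cultures was not given, and its part in the results was not tested beyond the fits with and without these libraries.

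Among other genes tied to the pathway only Pgm1 was called. Of 13 such genes, 9 passed the filter of 1 TPM. The paralogues G6pd2, Tktl1, Tktl2 and Prps1l1 did not, with G6pd2 listed at 0 in every library. Pgm1 (phosphoglucomutase 1, which joins glycogen breakdown to glucose 6-phosphate) was called by limma: it was at 40.6, 50.6 and 44.8 TPM in standard oxygen, against 90.2, 88.1 and 106 TPM for acute hypoxia and 84.2, 84.3 and 86.3 TPM for chronic hypoxia. Its log2 fold change was 1.05 in acute hypoxia (adjusted p 0.0568 unblocked, 0.012 with the code block) and 0.90 in chronic hypoxia (0.0193 and 0.00921). The lowest in acute hypoxia was Prpsap1, a regulatory partner of the PRPP synthetases (-0.24), and the lowest in chronic hypoxia was Tigar (-0.10), a phosphatase known to steer glucose 6-phosphate toward the pathway. Neither was called. Prps2 was the highest between chronic and acute hypoxia (0.32), and Pgm1 the lowest (-0.15), where 0 of 9 were called by limma in either fit, with 1 at an unadjusted p below 0.05.

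The enzymes around the branch point, among them the hexokinases and phosphofructokinases, were tested beside the members. Of 9 genes, 3 were called higher in acute hypoxia with the code block (Hk2, Gpi1 and Gapdh, by 1.33, 0.76 and 0.44; background 0.655%) and 0 without it, with 3 at an unadjusted p below 0.05. After rescaling with the code block only Gpi1 of them was called. In chronic hypoxia against standard oxygen 7 were called higher with the code block (background 15.1%) and 6 with rescaling added (background 5.54%). Unblocked, 0 were called (background 2.69%), with 7 at an unadjusted p below 0.05. The 7 were Hk1 (0.38), Hk2 (0.61), Gpi1 (1.17), Pfkl (1.28), Pfkp (0.91), Aldoa (0.79) and Gapdh (0.75), of which Hk1 was lost with rescaling. Hk3, at 211 TPM the highest of the 3 hexokinases listed, had the lowest change (0.01, and -0.14 in acute hypoxia), and it was not called, nor was Pfkm (0.09). Gpi1, which competes with G6pdx for glucose 6-phosphate, was at 1081 TPM against 483 TPM, while G6pdx was at 152 TPM against 170 TPM. Chronic against acute hypoxia had 2 called higher with the code block (Gpi1 0.41 and Aldoa 0.52; background 12.1%) and 1 lower (Hk2, -0.72; background 3.42%); the higher calls were lost with rescaling.

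Among 11 other NADPH producers tested, Me1, the cytosolic malic enzyme, was called lower by limma in chronic hypoxia in both fits. It was at 19.5, 21.1 and 21.4 TPM in standard oxygen and at 18.8, 20.4 and 20.2 TPM under acute hypoxia, against 9.05, 7.79 and 6.99 TPM under chronic hypoxia. Its log2 fold change was -1.28 against standard oxygen (adjusted p 0.0101 unblocked) and -1.22 against acute hypoxia (0.0256). Unblocked, 0.596% and 0.144% of all genes were called lower in these comparisons. Idh1, the cytosolic isocitrate dehydrogenase, was called higher in chronic hypoxia against standard oxygen with the code block (0.34, limma adjusted p 0.0267). It was 1 of 11 where 15.1% of all genes were called higher, and the call was lost with rescaling (0.16, adjusted p 0.15). In acute hypoxia 0 of 11 were called in either fit, with 3 at an unadjusted p below 0.05 without a block. The extremes there were Me2 at 0.31 and Mthfd2 at -0.38, and Mthfd2l (0.35) was the highest in chronic hypoxia against standard oxygen. Mthfd2 (0.35) led between chronic and acute hypoxia.

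Of 15 genes whose products use NADPH, 1 was called higher in acute hypoxia with the code block (background 0.655%). This was Nos2 (inducible nitric oxide synthase), by 3.25 (limma adjusted p 0.0166). Unblocked, 0 of 15 were called, with 0 at an unadjusted p below 0.05. Nos2 was at 2.53, 133 and 2.08 TPM in standard oxygen, 35.9, 41.8 and 800.2 TPM for acute hypoxia and 39.4, 33.4 and 195 TPM for chronic hypoxia. Its code Z library was highest in each group. In chronic hypoxia against standard oxygen 3 were called lower with the code block (background 3.3%): Txnrd1 (-0.79), Cybb (-0.33), the catalytic subunit of the phagocyte oxidase, and Blvrb (-0.47). Txnrd1, a thioredoxin reductase, was also called unblocked (adjusted p 0.0273). Between chronic and acute hypoxia 2 of 15 were called lower with the code block (background 3.42%): Txnrd1 (-0.95) and Gsr (-0.63), which reduces glutathione. Unblocked, 0 were called by limma, with 1 at an unadjusted p below 0.05. Txnrd2 was the highest of the list (0.25). Nos2 was the highest in chronic hypoxia against standard oxygen (2.51) without being called (adjusted p 0.0563 with the code block). Blvrb, a biliverdin reductase, was the lowest in acute hypoxia (-0.11).

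G6pdx, Pgd, Tkt and Taldo1 are known targets of NRF2, the transcription factor of the antioxidant response. They were set beside 14 NRF2 targets outside the pathway, of which 13 were tested and 4 (Gsr, Txnrd1, Me1 and Blvrb) are also in the lists above. Nqo1 was below the filter. In chronic hypoxia against standard oxygen 6 of 13 were called lower without a block (background 2.69% in either direction) and 11 with the code block (background 3.3% lower), with or without rescaling, and 0 were higher. The list's median was -0.98, against -0.72 for Taldo1, -0.35 for Pgd, -0.15 for G6pdx and -0.01 for Tkt. The largest fall among the 11 called was that of Slc7a11, the cystine transporter, at -2.48, and the smallest that of Blvrb, at -0.47. Gsta3 (-1.87), Gstm1 (-1.58), Gclm (-1.42), Prdx1 (-1.36), Srxn1 (-0.98), Gclc (-0.56) and Hmox1 (-0.51) were the others beside Me1 and Txnrd1. Against acute hypoxia 5 of 13 were called lower unblocked (background 0.144% lower), 10 with the code block (3.42%) and 12 with rescaling added (5.06%). The median was -1.22, against 0.14 for all genes, and Slc7a11 was again lowest at -2.84. Osgin1 was not called and was the highest in both (0.27 and 0.02). In acute hypoxia 0 of 13 were called by limma in either fit, with 1 at an unadjusted p below 0.05 without a block. The highest there was Hmox1 (0.70), at 1701 to 2479 TPM in standard oxygen and 3401 to 3637 TPM in acute hypoxia, and the lowest Gstm1 (-0.17). Part of this list was known from earlier results of these data, so its direction is not independent evidence.

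**Figure D4:**
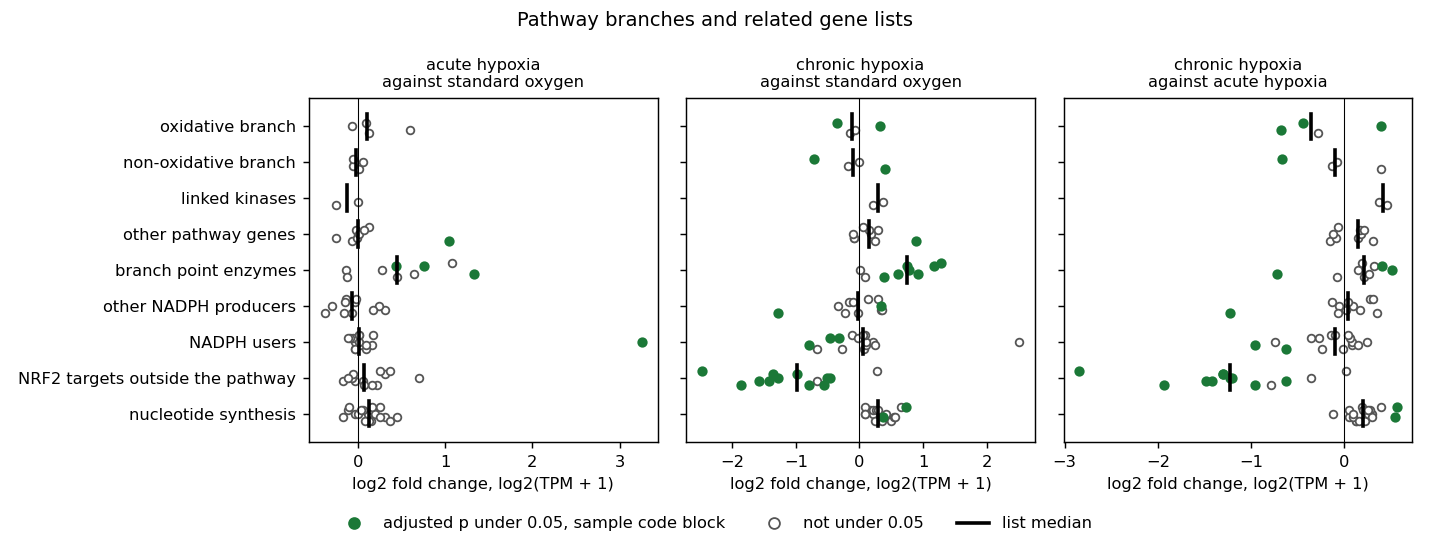
Log2 fold change (horizontal axis, log2(TPM + 1) scale) of each tested gene of the pathway branches and of the related lists in the 3 comparisons, filled green where the adjusted p with the sample code block was below 0.05, with the list median as a bar. In chronic hypoxia the NRF2 targets outside the pathway have a median of -0.98, the branch point enzymes one of 0.75, and the members of the pathway lie between these medians.

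Macrophage markers were looked at in the same fits. With the code block Itgam was called higher in chronic hypoxia against standard oxygen (0.51, adjusted p 0.0413), 1 of 8 markers where 15.1% of all genes were called higher, a call lost with rescaling, where Cd14 was called lower (-0.65, adjusted p 0.044). Against acute hypoxia Csf1r (0.56) and Itgam (0.47) were called higher and Cd14 (-0.88) and Fcgr1 (-0.42) lower (background 12.1% and 3.42%), and with rescaling only the lower calls were made. Mrc1, the mannose receptor, was at 2.78, 0.255 and 2.39 TPM in standard oxygen, 2.08, 2.15 and 0.247 TPM for acute hypoxia and 27.2, 39.0 and 0.697 TPM for chronic hypoxia. The code Z library was lowest in each group, and in chronic hypoxia it lay below the other standard libraries. The difference from standard oxygen, 2.30, was not called (adjusted p 0.0637 with the code block). Without the code Z libraries it was 3.23 and called unblocked (0.00206), where 21.1% of all genes were called. In acute hypoxia Cd14 (0.41) and Cd68 (-0.25) were the extremes and 0 of 8 were called in either fit, with 0 at an unadjusted p below 0.05 unblocked. Their part in the pathway's differences was not tested.

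By likeness of profile over the 9 libraries, the genes nearest to Taldo1 among 7099 with a mean of at least 10 TPM were Ftl1, Mapre3 and Cyb5a, with mean absolute differences of 0.079, 0.087 and 0.088 on the centred log2 scale, where Taldo1 itself varied by 0.311. Ftl1 (ferritin light chain) had means of 49398, 44292 and 29547 TPM in standard oxygen, acute and chronic hypoxia. Nearest to G6pdx were Ccs, Dnaja1 and Lpgat1, at 0.075, 0.08 and 0.082, where G6pdx varied by 0.209. Ccs (the copper chaperone of superoxide dismutase) had means of 26.3, 28.2 and 26.1 TPM.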

How the data were processed

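Gene expression was measured in 9 libraries. For each pair of groups a table of TPM values was deposited by the authors, 3 in all. GRCm38, STAR, featureCounts and FastQC are named, without versions or roles, per the submitters' processing notes; the annotation was not given in the sources used here. Each sample had identical values in its 2 tables, so they were joined. Symbols were matched for 34582 of 34866 identifiers; Aldoa and Nnt had 2 identifiers each, and the more abundant was used. Other columns of samples not used numbered 0. TPM keeps no depth, so no count test was run, and no counting error can be given.

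Each pair of groups was fitted on its 6 samples with limma 3.58.1 in R 4.3.3 (lmFit, eBayes with trend, two-sided) on log2(TPM + 1), for genes with a mean of at least 1 TPM, with Benjamini-Hochberg adjustment over all of them. The unblocked fit was tested on simulated data without a code effect, and the code-block fit was not tested in this way. Replicate numbers in the titles paired acute with chronic samples (r of deviations 0.399 to 0.633 across genes) but not standard oxygen with either (lowest r -0.515). The codes in the descriptions gave 0.378 or more for every pair and were used as the block. Every pair of unlike codes compared set Z against Y, and none set X against Y. These values therefore cannot show how codes X and Y pair. The named genes were all 10 members, the list genes called in a comparison or at the extremes of their list, and the 3 nearest profiles of G6pdx and Taldo1. The members and lists were chosen with earlier results of these data known. Alternatives were other pseudocounts (0.1 and 5), filters, scalings, blocks, all 9 samples in 1 fit, and leaving out libraries; leaving out the code Z libraries was chosen after seeing the data. Nucleotide synthesis genes are in the closing section.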

Additional observations from a re-analysis of the deposited data

Results flagged for a closer look

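In 4 members every pair of libraries with the same code differed one way in acute hypoxia and the other way in chronic hypoxia, against the same standard oxygen libraries. The same held for 6.46% of the 10876 genes tested in both comparisons. The difference between the hypoxia groups was tested as chronic against acute hypoxia, and the choice of members with opposite signs favours a difference there. H6pd was higher in acute hypoxia (0.29 to 0.77) and lower in chronic hypoxia (-0.14 to -0.04), and the difference was -0.68 (limma adjusted p 0.0794 unblocked, 0.0298 with the code block). Pgd was higher by 0.07 to 0.13 and lower by -0.45 to -0.25, with a difference of -0.44 (0.138 and 0.0262). Pgls was lower by -0.11 to -0.04 and higher by 0.25 to 0.42, with a difference of 0.39 (0.132 and 0.0313, and 0.121 with the code block and rescaling). Shpk was lower by -0.47 to -0.01 and higher by 0.17 to 0.25, with a difference of 0.46 that was not called (0.224 and 0.122). The acute and chronic changes share their standard oxygen libraries.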

How the results depend on the processing

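The share of all genes tested that was called moved by over 1.5 times under many settings. For acute hypoxia against standard oxygen it was 0.0273% unblocked, 0.0455% without the eBayes trend, 0.191% with median-of-ratios rescaling, 0.209% with quantile normalization and 0.228% with all 9 samples in 1 fit. A replicate block by title number gave 0% (limma, 0 genes, with 579 at an unadjusted p below 0.05), by code 0.71%, by code with rescaling 0.492% and by code with all 9 samples 1.87%. Without the code Z libraries it was 2.95%, and 3.02% with the code block added. Leaving out 1 library at a time gave 0% (without standard replicate 1) to 0.302% (without standard replicate 2). For chronic hypoxia against standard oxygen 2.69% became 0.614% with no filter, 1.5% without the trend and 6.96% with all 9 samples. The block by title number gave 0.00904%, by code 18.4%, by code with rescaling 11.5% and by code with all 9 samples 26.3%. It was 21.1% without the code Z libraries, 35% with the block added, and 0.00903% (without chronic replicate 2) to 4.74% (without standard replicate 2) leaving out 1 library. For chronic against acute hypoxia 0.695% became 0.0358% with no filter, 0.225% without the trend and 3.76% with all 9 samples. Either block gave 15.5%, the code block with rescaling 9.79% and with all 9 samples 22.2%. Without code Z it was 16.3%, 25.1% with the block, and 0.00901% (without chronic replicate 2) to 2.79% (without chronic replicate 3) leaving out 1 library.

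The count of members called, 0 without a block in each comparison, was 1 in acute hypoxia (H6pd) with the code block and no code Z libraries. In chronic hypoxia against standard oxygen it was 1 with a mean TPM of at least 5, quantile normalization or all 9 samples (Taldo1) and with rescaling (Pgd), 4 with the code block (also with rescaling, all 9 samples, or no code Z), 3 without code Z, and 0 to 1 leaving out 1 library. In chronic against acute hypoxia it was 2 with all 9 samples, 4 with either replicate block or the code block with rescaling, 6 with the code block and all 9 samples, 3 without code Z and 5 with the block added, and 0 to 1 leaving out 1 library. The block by title number called 0 members against standard oxygen. Shpk fell below the filter of 5 TPM.

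The branch balance in chronic hypoxia against standard oxygen (0.24, log2) was 0.065 with the genes weighted equally and 0.47 without Tkt, and against acute hypoxia (0.12) it was -0.13 and 0.32. Leaving out 1 library gave 0.05 to 0.23, 0.17 to 0.35 and 0.07 to 0.19 in acute against standard, chronic against standard and chronic against acute.

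Of 597 member values under alternatives, 515 kept their direction and side of the threshold and 54 passed it; 28 changed sign, none of them called. In acute hypoxia these were Rpia (-0.00846 with rescaling, with or without the code block, and -0.0265 with quantile normalization) and Prps1 (-0.000774 with a pseudocount of 0.1, -0.017 with rescaling, with or without the code block, -0.0397 with quantile normalization, -0.15 without code Z, with or without the block). Leaving out 1 library gave in acute hypoxia G6pdx -0.0564 to 0.235, Pgls -0.132 to 0.000874, Pgd -0.0167 to 0.184, Rpia -0.0473 to 0.104, Rpe -0.171 to 0.00428, Tkt -0.069 to 0.167, Taldo1 -0.186 to 0.0366 and Prps1 -0.276 to 0.16, in chronic hypoxia against standard oxygen G6pdx -0.335 to 0.00344 and Tkt -0.14 to 0.0914, and against acute hypoxia Tkt -0.202 to 0.055. The cause of these shifts was not tested. The depth is unknown, so the limit it sets on Shpk and Prps1 cannot be given.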

Other observations

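Ribose 5-phosphate feeds nucleotide synthesis, and 19 genes of that process were tested beside the pathway. In chronic hypoxia against standard oxygen 15 of 19 were higher in 3 of 3 code pairs, where 46.9% of all genes were, and 0 were lower. The median was 0.29 as deposited against 0.16 for all genes, and 0.12 after rescaling against -0.002. Without a block 0 were called by limma, with 3 at an unadjusted p below 0.05. With the code block 2 of 19 were called, both higher, where 15.1% of all genes were called higher: Rrm1, the large subunit of ribonucleotide reductase (0.73, adjusted p 0.0131), and Impdh1, an enzyme of guanine nucleotide synthesis (0.37, adjusted p 0.0256), of which Rrm1 kept its call with rescaling (0.55, adjusted p 0.0245). Umps was the lowest (0.08). Against acute hypoxia Rrm1 (0.57) and Gart (0.54) were called higher with the code block, 2 of 19 where 12.1% of all genes were. With rescaling added 1 of 19 was called higher (background 4.73%). Unblocked, 0 were called by limma, with 3 at an unadjusted p below 0.05. Umps was the lowest (-0.12). In acute hypoxia 0 of 19 were called in either fit, with 2 at an unadjusted p below 0.05 without a block; the extremes were Dhodh (0.45) and Gart (-0.17).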
